A study of Mus musculus with 4 samples.

Results

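Heat shock chaperones are described here by the mRNA of 9 genes, Hspa1a, Hspa1b, Hsp90aa1, Dnajb1, Hsph1, Hspa8, Hspa5, Hspb1 and Cryab, out of 32285 genes listed for each library. The genes were taken by symbol from a fixed list, by a rule that uses no measured value. The list was chosen with earlier results of these data known. Each symbol matched 1 gene identifier. The level of each gene was followed in every cell type that could be named from marker genes, and T cells were looked at on their own.

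Chaperones hold unfolded or newly made proteins and help them to reach or regain their shape. When proteins unfold, as in heat, lack of oxygen or other stress, the transcription factor HSF1 binds heat shock elements and raises a set of cytosolic chaperones, while unfolded protein in the endoplasmic reticulum raises its own set through ATF6, PERK and IRE1. In immune cells the inducible HSP70 genes are also known to rise while a tissue is dissociated into single cells.

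The cells came from the ascites of female FVB mice that carried tumors of Br-Luc, 1 mouse ovarian cancer line of the genotype p53-/-, brca1-/-, myc and Akt-myr, and were collected 6 weeks after the tumor cells were injected. The mice of both groups received an siRNA with locked nucleic acid bases (LNA) in the polyethylenimine carrier jetPEI, either a control sequence (siCont) or a sequence against Fxr1 (siFXR1-LNA). Ascites of several mice was pooled for each library, red cells were lysed, and 2 libraries per group were made, so a p-value measures the spread between these 4 pools. The control mice carried the same tumor and the same carrier, and a library from untreated or tumor-free mice was not analysed here.

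The mRNA that the siRNA targets was not lower under the siFXR1-LNA label, so libraries are named by their labels throughout. Fxr1 stood at 57.3 and 36.6 CPM (UMIs per 1e6 UMIs) over all barcodes of the libraries labelled siCont replicate 1 and 2, and at 104 and 74.4 CPM in those labelled siFXR1-LNA replicate 1 and 2. In T cells it stood at 68.0 and 50.9 CPM against 114.8 and 75.7 CPM. These totals include hemoglobin UMIs, whose share differed between the labels, and Fxr1 was not computed without them. The filters of the methods kept 16874 to 54344 cells per library, with a median of 1349 to 2653 UMIs per cell, which is more cells than the study states, and the library that the study left out is not named in the sources used here. Of all UMIs, 29.5% and 41.1% were from hemoglobin genes where the label was siCont, and 10.0% and 9.11% where it was siFXR1-LNA. From 575 to 2846 cell barcodes were shared by any pair of libraries. The largest cluster, 46461 cells led by Ccn2, Tfrc, Dcn and Hspb1, held 58 and 40 cells of the libraries labelled siCont and 41009 and 5354 of those labelled siFXR1-LNA, and it matched no marker list, so it stayed unnamed and is called the Ccn2 cluster here. The cells named epithelial had 3 of 5 epithelial and 4 of 5 mesothelial markers raised, and none of their 10 leading genes was an epithelial marker.

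The 9 genes are autosomal and lie apart, except for the HSP70 pair. On the GRCm38 build, Hspa1a (ENSMUSG00000091971) lies on chromosome 17 from 34969190 to 34972156 and Hspa1b (ENSMUSG00000090877) from 34956436 to 34959238, both on the minus strand. Hsp90aa1 (ENSMUSG00000021270) is at chr12:110690605-110702728, Dnajb1 (ENSMUSG00000005483) at chr8:83608193-83612653 and Hsph1 (ENSMUSG00000029657) at chr5:149614287-149636376. Hspa8 (ENSMUSG00000015656) is at chr9:40800984-40810087 and Hspa5 (ENSMUSG00000026864) at chr2:34771970-34777547. The small heat shock genes Hspb1 (ENSMUSG00000004951) and Cryab (ENSMUSG00000032060) are at chr5:135887919-135889563 and chr9:50751325-50756636. The coding sequences of Hspa1a and Hspa1b are 99.4% identical, while the stretches after the stop codon are 46.9% identical, so reads that fall in the coding part could be counted for either gene or for neither. Levels of Hspa1a and of Hspa1b alone are therefore uncertain, and the sum of both is given beside the results that rest on 1 of them. The test of the sum as a single gene was added after seeing the data.

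Promoter stretches are shown for members whose window holds a heat shock element, the motif that HSF1 binds, or an ER stress element. Below are the 250 bases before the start site from RefSeq (GRCm38.p6), with the core of a heat shock element, GAANNTTC or TTCNNGAA, in capitals. Either core, searched on both strands in a window of 300 bases around the start (250 before and 50 after), was found in 15.1% of 32851 promoters in the table. The stretches of Hspa1a (chr17:34972157-34972406, minus strand) and Hspb1 (chr5:135887669-135887918, plus strand) were as follows.
Hspa1a: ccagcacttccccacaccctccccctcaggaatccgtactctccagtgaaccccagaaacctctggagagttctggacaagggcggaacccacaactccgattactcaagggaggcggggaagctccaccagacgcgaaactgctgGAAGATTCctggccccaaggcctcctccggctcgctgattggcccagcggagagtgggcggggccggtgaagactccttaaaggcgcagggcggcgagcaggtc
Hspb1: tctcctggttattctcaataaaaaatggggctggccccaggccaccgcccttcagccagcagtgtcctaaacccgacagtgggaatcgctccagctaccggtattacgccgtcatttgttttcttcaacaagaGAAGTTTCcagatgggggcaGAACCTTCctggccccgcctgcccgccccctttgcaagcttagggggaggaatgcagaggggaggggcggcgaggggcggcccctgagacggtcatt
The Hspb1 stretch holds 2 cores, 117 and 97 bases before the start. The Hspa1a core begins 104 bases before the start, and the stretch of Hspa1b (chr17:34959239-34959488, minus strand) has its core at the same distance and differs from that of Hspa1a at 3 of 250 bases. Hsph1, from 2 start sites on chromosome 5, has a core 33 or 54 bases before the start, and a pair of cores that share their middle GAA lies 37 or 16 bases after it.
Hsph1: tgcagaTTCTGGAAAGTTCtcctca
Such a run of 3 alternating GAA and TTC units, each 2 bases apart, was found in 0.603% of the promoters, and in the stretch shown, which lies on the minus strand, the capitals are chr5:149636288-149636300. The windows of Dnajb1, at 2 start sites, and of Hspa5 hold neither core. The Hspa5 stretch (chr2:34771840-34772089, plus strand) holds an ER stress element, CCAAT and CCACG with 9 bases between them, in capitals below, 65 bases before the start, as do 0.119% of the promoters.
Hspa5: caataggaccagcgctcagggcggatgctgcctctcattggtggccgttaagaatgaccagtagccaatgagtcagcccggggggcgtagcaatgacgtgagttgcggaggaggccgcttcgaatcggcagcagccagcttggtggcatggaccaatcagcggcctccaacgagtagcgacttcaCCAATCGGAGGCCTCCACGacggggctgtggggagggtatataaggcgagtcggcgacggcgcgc
Hsp90aa1, Hspa8 and Cryab are in the files by name alone.

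T cells were 2415 and 2261 cells in the libraries labelled siCont and 1082 and 1295 cells in those labelled siFXR1-LNA. All 6 T cell markers (Cd3d, Cd3e, Cd3g, Trac, Lef1 and Cd28) were detected in every library, with a summed level of 1664 and 2244 CPM against 776 and 1627 CPM. RNA of other cells was also present. The 6 granulocyte markers summed to 105 and 783 CPM in T cells of the libraries labelled siCont and to 1735 and 2640 CPM in those labelled siFXR1-LNA, and the 6 fibroblast markers to 219 and 50.6 CPM against 704 and 255 CPM. Most of the fibroblast sum was Dcn, a leading gene of the Ccn2 cluster, at 197.5 and 42.7 CPM against 687 and 244 CPM. The 7 macrophage markers summed to 1788 and 454 CPM against 1249 and 2348 CPM, with overlap. The 5 erythrocyte markers summed to 213800 and 180600 CPM against 72430 and 36460 CPM, while the DC marker Xcr1 was at 0 in all 4 libraries. The part of these markers' cells in the values below was not tested, except where a value is given. None of the 9 chaperones passed the test in T cells. Both libraries labelled siFXR1-LNA lay above both labelled siCont for 6 of the 9, the inducible HSP70 genes and the small heat shock genes among them, as they did for 34.5% of all 12230 genes tested. They lay below for 1, Hspa8, as for 12.1% of all genes. With hemoglobin UMIs left out of the totals, the groups overlapped for Hsp90aa1 and Hspa5, so their separation depended on those totals.

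The inducible HSP70 genes Hspa1a and Hspa1b, which encode nearly the same stress-induced ATP-driven chaperone, were rare in T cells. Hspa1a stood at 6.82 and 1.09 CPM (36 and 7 UMIs) in the libraries labelled siCont and at 20.2 and 22.3 CPM (46 and 75 UMIs) in those labelled siFXR1-LNA. Hspa1b stood at 5.68 and 3.41 CPM (30 and 22 UMIs) against 15.3 and 36.2 CPM (35 and 122 UMIs). For both genes the groups did not overlap. Their sum stood at 12.5 and 4.50 CPM against 35.5 and 58.5 CPM, and the groups did not overlap for it either. The log2 fold change of Hspa1a was 2.27 (SE 0.73, adjusted p = 0.298 by the quasi-likelihood test of edgeR, adjusted after Benjamini and Hochberg over all genes tested), and that of Hspa1b was 2.32 (SE 0.48, adjusted p = 0.141). That of the sum was 2.30 (SE 0.50, adjusted p = 0.155).

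**Figure D1:**
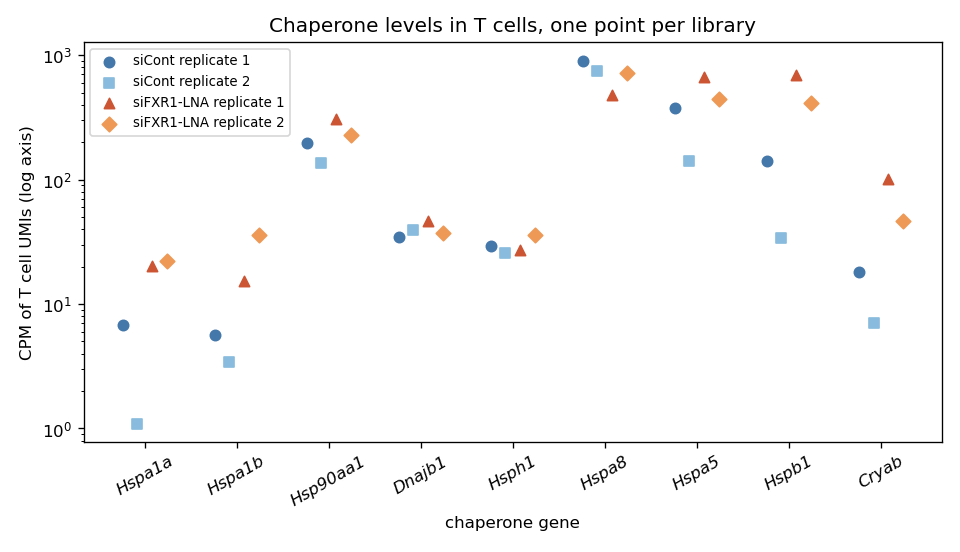
Levels of the 9 chaperones in T cells, in CPM of all T cell UMIs, hemoglobin included, on a log axis, with 1 point per library and no error bar. The points of the libraries labelled siFXR1-LNA lie above both labelled siCont for 6 of 9 genes (34.5% of all genes tested), Hspa1a (20.2 and 22.3 against 6.82 and 1.09) among them, lie below for Hspa8, and mix with them for Dnajb1 and Hsph1.

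These UMIs sat in few cells. A UMI of Hspa1a or Hspa1b was found in 39 of 2415, 28 of 2261, 33 of 1082 and 65 of 1295 T cells, in the order siCont replicate 1 and 2, siFXR1-LNA replicate 1 and 2. The 5 cells with most of them held 48.5%, 20.7%, 45.7% and 48.2% of the T cell UMIs of the pair. In siCont replicate 1, 1 cell held 23 of the 36 Hspa1a UMIs. Cells with 2 or more UMIs of the pair numbered 3 and 1 in the libraries labelled siCont and 11 and 22 in those labelled siFXR1-LNA, out of smaller numbers of cells.

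**Figure D2:**
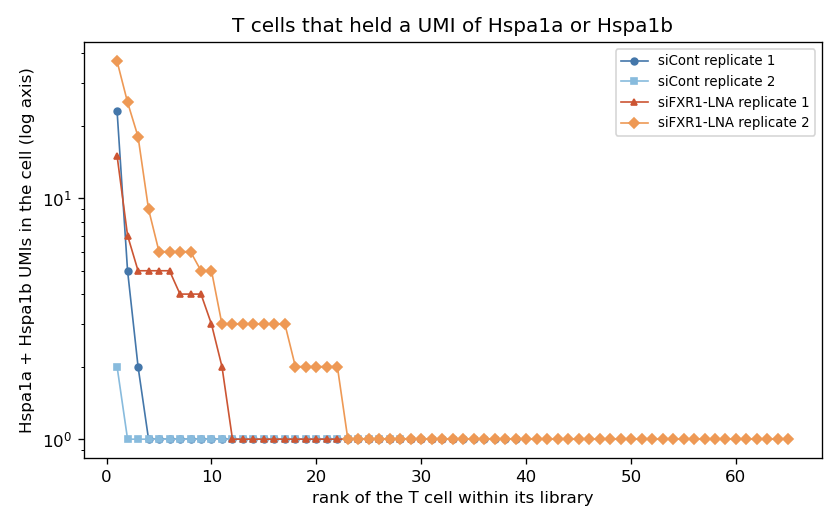
Each T cell with a UMI of Hspa1a or Hspa1b, ranked within its library, against its summed UMIs of both genes on a log axis, with 1 line per library. The highest cell held 23 and 2 UMIs in the libraries labelled siCont and 15 and 37 in those labelled siFXR1-LNA, and most cells held 1.

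With every cell thinned to 1000 UMIs, 0.874% (95% exact binomial interval 0.535 to 1.35) and 0.276% (0.101 to 0.600) of T cells held a UMI of the pair in the libraries labelled siCont. In those labelled siFXR1-LNA the shares were 1.60% (0.933 to 2.54) and 3.02% (2.14 to 4.12). The intervals cover counting error alone, and thinning left out 127, 88, 17 and 36 shallower cells. Erythrocytes, which were taken as a type that should lack the mRNA, gave 0.360% and 0.0982% in the libraries labelled siCont. These shares lay below the T cells of the same library, but thinning counts hemoglobin UMIs, a median of 67.2% per erythrocyte. With hemoglobin left out, Hspa1a and Hspa1b in siCont replicate 1 were 8.66 and 7.22 CPM in T cells. Its erythrocytes had 3.2 and 4.86 CPM. In siCont replicate 2 they were 1.32 and 4.16 CPM in T cells and 2.27 and 3.10 CPM in erythrocytes. T cells thus lay above erythrocytes for both genes in replicate 1, but for Hspa1b alone in replicate 2. In the libraries labelled siFXR1-LNA only 14 and 46 erythrocytes were deep enough, and none held a UMI, which allows shares of up to 21.4% and 6.52%. The Ccn2 cluster there gave 1.02% and 1.44%. Median depths were 2012, 2547, 1941 and 2371 UMIs in T cells and 1709, 2320, 1210 and 2240 UMIs in erythrocytes, and without thinning the T cell shares were 1.61%, 1.24%, 3.05% and 5.02%.

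Split by receptor and coreceptor genes, T cells had few UMIs of Hspa1a. T cells with a Cd4 UMI and none of Cd8a or Cd8b1 held 2 and 2 Hspa1a UMIs in the libraries labelled siCont (2.07 and 1.21 CPM) and 4 and 13 in those labelled siFXR1-LNA (21.3 and 37.1 CPM). Those with a Cd8a or Cd8b1 UMI and none of Cd4 held 0 and 2 UMIs (0 and 1.10 CPM) against 12 and 11 (33.0 and 15.3 CPM). Cells with a UMI of Trdc or Tcrg-V6, which mark gamma-delta T cells, held 6 and 2 (7.79 and 4.31 CPM) against 6 and 13 (48.1 and 12.9 CPM). Cells with no UMI of Cd4, Cd8a or Cd8b1 held 34 and 3 (9.40 and 1.04 CPM) against 30 and 51 (17.3 and 22.3 CPM). In these 4 sets the groups did not overlap for Hspa1a, nor for the sum of the pair, while for Hspa1b they did in the gamma-delta cells, where siFXR1-LNA replicate 1 held none in 52 cells. The sum was 7.24 and 5.46 CPM against 47.9 and 62.9 CPM in the Cd4 set and 1.48 and 2.74 CPM against 63.3 and 44.5 CPM in the Cd8 set.

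T cells of the 4 libraries fell largely into different finer clusters. The one led by Ifi27l2a, Ly6c2 and Irf7 held 1655 and 1777 cells of the libraries labelled siCont and 7 and 48 of those labelled siFXR1-LNA, while the one led by Ccn2, Ndrg1 and Vegfa held 3 and 9 against 747 and 508. In the first, the sum of the pair stood at 12.8 and 3.81 CPM (48 and 20 UMIs) against 0 and 6.03 CPM (0 and 1 UMIs), so it was not higher there, on 7 and 48 cells. In the second it stood at 42.6 and 80.1 CPM under the siFXR1-LNA label. In the finer clusters led by gamma-delta genes and by Themis, which all 4 libraries filled, the sum was 14.2 and 8.85 CPM against 32.1 and 57.7 CPM and 7.88 and 5.02 CPM against 30.3 and 49.5 CPM. In the one led by granulocyte genes it was 0 and 15.3 CPM against 0 and 13.8 CPM, on 0 to 5 UMIs. Without the finer clusters led by Ccn2 and by granulocyte genes, 274 and 699 T cells were left in the libraries labelled siFXR1-LNA, and Hspa1a stood at 6.84 and 0.953 CPM against 19.8 and 14.6 CPM (log2 fold change 1.81, adjusted p = 0.404). The sum stood there at 12.6 and 4.29 CPM against 29.7 and 50.5 CPM (1.98, adjusted p = 0.177).

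Hsp90aa1, the inducible cytosolic HSP90 that matures kinases and steroid receptors, was measured on many more UMIs. It stood at 198 and 136 CPM in T cells of the libraries labelled siCont and at 306 and 230 CPM in those labelled siFXR1-LNA. The groups did not overlap, by a log2 fold change of 0.52 (SE 0.34, adjusted p = 0.574). With hemoglobin left out of the totals they did overlap, at 251 and 166 CPM against 330 and 238 CPM.

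For the co-chaperones of HSP70 the groups overlapped. Dnajb1, an HSP40 that hands clients to HSP70, stood at 34.5 and 39.6 CPM against 46.5 and 37.1 CPM (log2 fold change 0.00, SE 0.27, adjusted p = 0.998). Hsph1, the HSP110 that exchanges the nucleotide of HSP70, stood at 29.2 and 25.8 CPM against 27.2 and 35.9 CPM (0.02, SE 0.25, adjusted p = 0.981). A Dnajb1 UMI was found in 15.4% and 7.14% of the T cells that held a UMI of Hspa1a or Hspa1b in the libraries labelled siCont and in 27.3% and 21.5% in those labelled siFXR1-LNA. Among the other T cells the shares were 6.78%, 10.5%, 8.39% and 7.89%. The first set is small, with 6, 2, 9 and 14 cells that held both, and shares in it were higher than in the other T cells in 3 of 4 libraries. In the same 3 libraries the first set was also deeper, and these shares were not thinned. Its median depths were 2533, 2528.5, 2193 and 2527 UMIs, against 2002, 2547, 1936 and 2363 in the other T cells.

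Hspa8, the constitutive HSP70 (HSC70) that serves folding and clathrin uncoating, was the member that lay lower. It stood at 906 and 748 CPM in T cells of the libraries labelled siCont and at 477 and 722 CPM where the label was siFXR1-LNA, with a log2 fold change of -0.65 (SE 0.31, adjusted p = 0.457). The values 748 and 722 CPM are close together, so in these totals the separation is narrow for siFXR1-LNA replicate 2. With hemoglobin left out of the totals, Hspa8 stood at 1150 and 912 CPM against 514.5 and 749 CPM.

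Hspa5 encodes BiP, the HSP70 of the endoplasmic reticulum and a target of its unfolded protein response. It stood at 379 and 141 CPM in T cells of the libraries labelled siCont and at 663 and 442 CPM in those labelled siFXR1-LNA. The groups did not overlap (log2 fold change 0.93, SE 0.52, adjusted p = 0.521), and the libraries within each group lay far apart. With hemoglobin left out of the totals the groups overlapped, at 482 and 172 CPM against 715 and 459 CPM.

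The small heat shock proteins Hspb1 (HSP27 family) and Cryab (alpha B-crystallin) hold unfolded proteins without ATP. Hspb1 stood at 142 and 33.7 CPM in T cells of the libraries labelled siCont and at 696 and 410 CPM under the siFXR1-LNA label (log2 fold change 2.51, SE 0.71, adjusted p = 0.241). Cryab stood at 18.0 and 6.98 CPM against 101 and 46.6 CPM (2.42, SE 0.59, adjusted p = 0.190). Neither gene's groups overlapped. In contrast to the HSP70 pair, the Hspb1 UMIs were spread over 625, 189, 798 and 829 T cells, with at most 4, 12, 7 and 9 in 1 cell.

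Shares of cells with a Hspb1 UMI were close together in T cells, B cells and granulocytes of a library, lower in macrophages and different again in epithelial cells. Thinned to 1000 UMIs, 14.2% and 3.50% of T cells held a Hspb1 UMI in the libraries labelled siCont, and 16.0% and 4.09% of erythrocytes did. The T cell share was no higher than in erythrocytes there, so it is not counted as expression. Whether it was RNA of other cells was not tested. In the libraries labelled siFXR1-LNA the shares were 50.7% and 34.6% in T cells, 46.4% and 34.9% in B cells and 52.5% and 37.8% in granulocytes, beside 64.3% and 39.4% in the Ccn2 cluster. Of the few erythrocytes there, 42.9% (17.7 to 71.1) and 19.6% (9.36 to 33.9) held one. Macrophages gave 6.94% and 1.79% against 26.4% and 15.9%, and epithelial cells 18.1% and 14.2% against 31.9% and 32.2%. Without thinning, the T cell shares were 25.9%, 8.36%, 73.8% and 64.0%.

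Ccn2, a secreted matrix protein that leads the unnamed cluster, moved with Hspb1. In T cells it stood at 46.0 and 12.9 CPM in the libraries labelled siCont and at 516 and 200 CPM in those labelled siFXR1-LNA, beside 707 and 253 CPM in the Ccn2 cluster of the latter. In siFXR1-LNA replicate 1 the T cells held 1.35 Hspb1 UMIs per Ccn2 UMI, B cells 1.33, granulocytes 1.36 and the Ccn2 cluster 1.44. In siFXR1-LNA replicate 2 the same ratios were 2.05, 2.48, 2.19 and 2.11. Epithelial cells lay below these (1.14 and 1.48) and macrophages above (1.5 and 2.96). The part of RNA from the Ccn2 cluster in the T cell values of Hspb1 was not tested beyond these ratios. Hspa1a was lower in the Ccn2 cluster, at 3.62 and 4.38 CPM, than in T cells of the same libraries, at 20.2 and 22.3 CPM. In a macrophage cluster with Nos2 among its leading genes, described below, the HSP70 pair stood at 43.0 and 49.2 CPM in these libraries. T cells without the finer clusters led by Ccn2 and by granulocyte genes held Nos2 at 0.190 and 0.477 CPM under the siCont label. Under the siFXR1-LNA label it was 19.8 and 29.8 CPM. The part of that cluster's RNA in the T cell values of the pair was not tested.

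**Figure D3:**
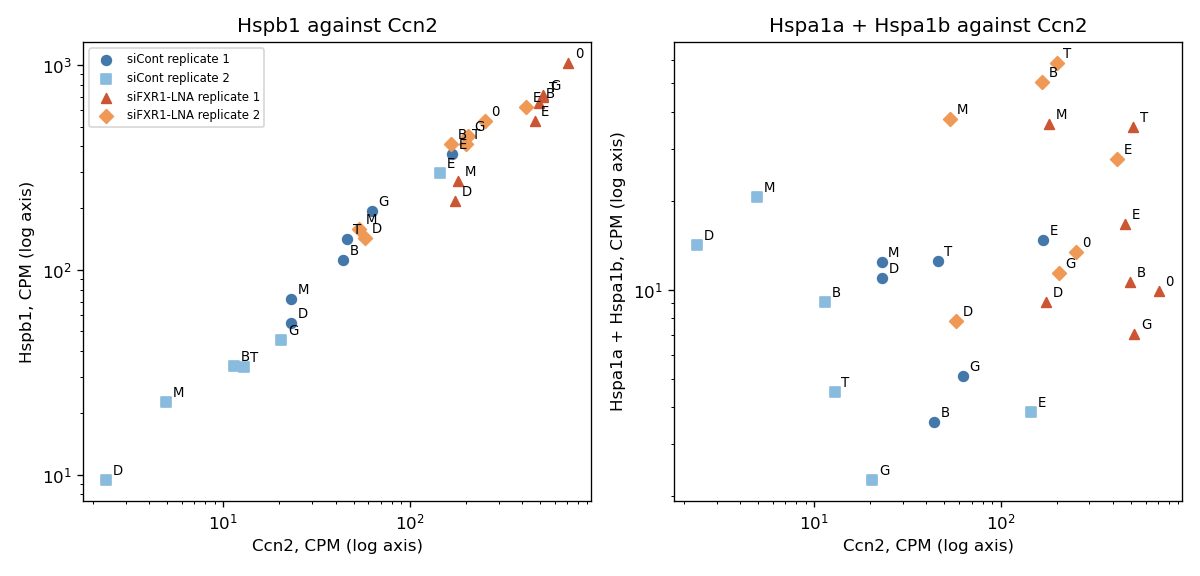
CPM of Hspb1 (left) and of Hspa1a plus Hspa1b (right) against CPM of Ccn2, on log axes, with 1 point per cell type and library (T, B, G, M, E and D for T cells, B cells, granulocytes, macrophages, epithelial cells and DCs, 0 for the Ccn2 cluster). Hspb1 points climb with Ccn2 from DCs of siCont replicate 2 (9.44 CPM) to the Ccn2 cluster of siFXR1-LNA replicate 1 (1020 CPM), while the HSP70 points of 1 library spread up and down at like Ccn2.

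Set against the whole table, the T cell test called 56 of 12230 genes, 0.458%, and 0 of the 9 members, all of which were tested. At an unadjusted p under 0.05 there were 4 of the 9 members (Hspa1a, Hspa1b, Hspb1 and Cryab) and 1537 of all genes (12.6%). DESeq2 called 3 members and 409 genes. The median log2 fold change was 0.93 over the 9 members and -0.01 over all genes tested. Leaving out siCont replicate 2, siFXR1-LNA replicate 1 or siFXR1-LNA replicate 2 left 0 members past the threshold, beside 145, 24 and 29 genes. Without siCont replicate 1 it was 4 members, Hspa1a, Hspa1b, Hspb1 and Cryab, beside 420 genes. That fit has a single siCont library, which is assumed to vary like the siFXR1-LNA pair, and the library left out is the siCont library with the higher values of these 4 genes.

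Among the tested types, members passed the test in the cells named macrophages alone. Hspa1a rose, from 6.05 and 10.4 CPM in the libraries labelled siCont to 23.6 and 23.6 CPM under the siFXR1-LNA label (log2 fold change 1.71, SE 0.29, adjusted p = 0.0207). Hspb1 rose as well, from 72.0 and 22.6 CPM to 271 and 158 CPM (2.39, SE 0.59, adjusted p = 0.0474). Hsph1 fell, from 28.5 and 21.7 CPM to 10.8 and 12.5 CPM (-0.91, SE 0.17, adjusted p = 0.0256). Hspa1b, at 6.34 and 10.3 CPM against 12.7 and 14.1 CPM, missed the threshold (0.88, SE 0.28, adjusted p = 0.0861), and so did Cryab (1.99, SE 0.54, adjusted p = 0.0587). The sum of Hspa1a and Hspa1b rose, from 12.4 and 20.6 CPM to 36.3 and 37.8 CPM (1.35, SE 0.27, adjusted p = 0.0293). That is 3 of 9 members, beside 20.2% of all 14873 genes tested in macrophages, with 2 higher beside 9.78% and 1 lower beside 10.5%. Granulocyte markers summed to 116 and 532 CPM against 1325 and 1511 CPM in these macrophages, and fibroblast markers to 81.8 and 18.3 CPM against 229 and 70.4 CPM. Most of the fibroblast sum was again Dcn, at 74.6 and 14.0 CPM against 225 and 67.5 CPM. The part of these markers' cells was not tested. The median over the members was 0.53 and over all genes 0.00. Leaving out either library labelled siFXR1-LNA left 0 members past the threshold.

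The macrophage calls were lost without a cluster that the libraries labelled siCont did not fill. It was led by Ptges, Cacna1d and Nos2, the inducible nitric oxide synthase, and held 0 and 1 cells of the libraries labelled siCont and 2529 and 2208 of those labelled siFXR1-LNA. When macrophages were clustered alone, the finer cluster led by Nos2 (4736 cells) had 4 of 6 granulocyte markers raised. The marker rule named it granulocytes. Another, of 890 cells, had 7 of 7 B cell markers raised and was named B cells. Both stayed in the macrophages tested, since only the finer cluster named DCs was moved out. Hspa1a stood at 28.3 and 32.4 CPM in the Nos2 cluster of the libraries labelled siFXR1-LNA, and at 12.0 and 8.18 CPM in their other macrophages, next to 6.05 and 10.4 CPM in those labelled siCont. Without the Nos2 cluster 0 members and 0 genes passed, and the log2 fold change of Hspa1a was 0.27 (adjusted p = 0.720). The sum of the pair stood at 43.0 and 49.2 CPM in the Nos2 cluster and at 19.7 and 17.7 CPM in the other macrophages of the libraries labelled siFXR1-LNA, against 12.4 and 20.6 CPM in those labelled siCont (0.16, adjusted p = 0.794). Hspb1 kept its size there (2.5, adjusted p = 0.150), at 346 and 194 CPM in the other macrophages of the libraries labelled siFXR1-LNA. Hsph1 stood at 12.6 and 18.2 CPM in those cells (-0.73, adjusted p = 0.195) and at 10.1 and 9.34 CPM in the Nos2 cluster.

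**Figure D4:**
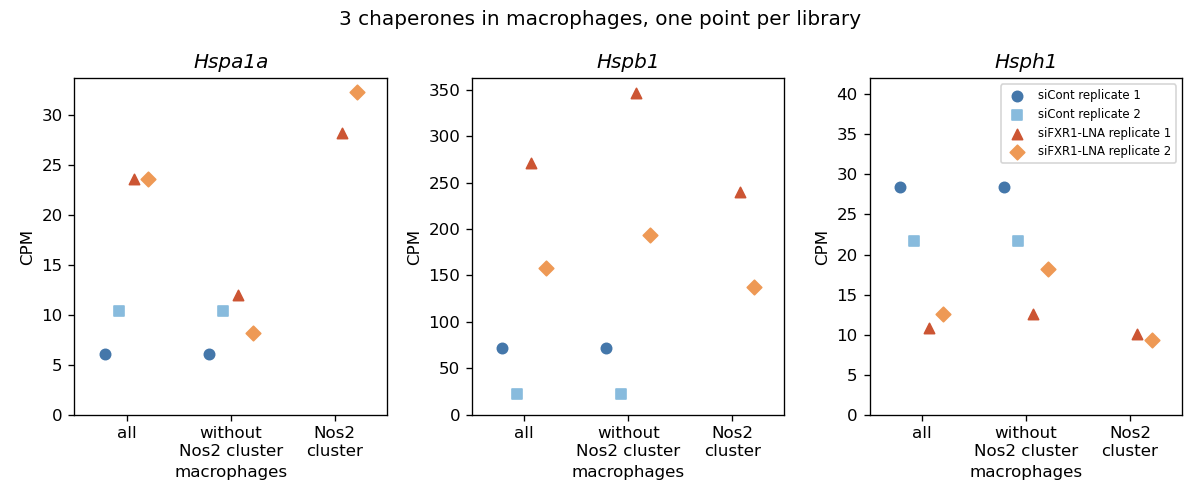
CPM of Hspa1a, Hspb1 and Hsph1 in all macrophages, in macrophages without the Nos2 cluster and in the Nos2 cluster, with 1 point per library, axes from 0 and no error bar. Hspa1a of the libraries labelled siFXR1-LNA is 23.6 and 23.6 in all macrophages, 12.0 and 8.18 without the Nos2 cluster and 28.3 and 32.4 in it, where the libraries labelled siCont hold 0 and 1 cells and are not drawn.

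In B cells, granulocytes and epithelial cells, the other types with at least 100 cells in every library, no member passed the test. In B cells Hspa1b stood at 2.51 and 4.38 CPM against 5.58 and 35.8 CPM (log2 fold change 2.36, SE 0.81, adjusted p = 0.294), a value that rests on siFXR1-LNA replicate 2, and Hspb1 at 111 and 34.04 CPM against 653 and 413 CPM (2.70, SE 0.61, adjusted p = 0.159). B cells had 0 of 9 members past the threshold, beside 0.0964% of all genes, with 4 members at an unadjusted p under 0.05 beside 14.4% of all genes, and 2 called by DESeq2 beside 457 genes. Other cells' markers moved with Hspb1 in B cells, with granulocyte markers at 132 and 869 CPM against 2136 and 2544 CPM and fibroblast markers at 168 and 43.4 CPM against 634 and 213 CPM, and their part was not tested. Most of this fibroblast sum was Dcn, at 152 and 38.2 CPM against 622 and 205 CPM. In granulocytes Hspa1a rested on 1 and 1 UMIs in the libraries labelled siCont and 37 and 50 in those labelled siFXR1-LNA (1.94, SE 0.90, adjusted p = 0.289), and Hspb1 stood at 193 and 45.5 CPM against 711 and 449 CPM (2.16, SE 0.58, adjusted p = 0.0679). Granulocytes had 0 of 9 beside 3.42%, with 3 at an unadjusted p under 0.05 beside 18.1% of all genes, and 2 by DESeq2 beside 615 genes. Fibroblast markers in granulocytes summed to 270 and 66.5 CPM against 693 and 276 CPM, most of it Dcn (246.5 and 58.0 against 679.5 and 269 CPM). The sum of Hspa1a and Hspa1b was 3.55 and 9.12 CPM against 10.7 and 50.6 CPM in B cells (2.06, adjusted p = 0.329) and 5.11 and 2.27 CPM against 7.09 and 11.4 CPM in granulocytes (1.23, adjusted p = 0.322). Hsph1 was at -0.45 in B cells and -0.86 in granulocytes, with overlap in both.

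In epithelial cells, the type with the highest mean Hspb1 over the 4 libraries, the gene stood at 367 and 298 CPM against 532 and 626 CPM (0.82, SE 0.25, adjusted p = 0.0717). Under the siFXR1-LNA label alone, its mean was 617 CPM in mast cells and 580.2 CPM in granulocytes, next to 578.8 CPM in epithelial cells. Cryab stood at 69.4 and 72.1 CPM against 79.0 and 110.1 CPM there (0.43, SE 0.24, adjusted p = 0.310), and Hspa5 at 508 and 281 CPM against 621 and 683 CPM (0.75, SE 0.29, adjusted p = 0.153). Epithelial cells had 0 of 9 past the threshold beside 7.75% of all genes, with 3 at an unadjusted p under 0.05 beside 23.7%, and 1 by DESeq2 beside 889 genes. Hspa1a, Hspa1b and Hsp90aa1 overlapped there. Granulocyte markers in epithelial cells summed to 99.5 and 163 CPM against 1285 and 872 CPM, while fibroblast markers overlapped (686 and 1397 against 566 and 708 CPM).

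The smaller types gave fewer members a test. DCs had 0 of 7 tested members called beside 0.977%, with 3 at an unadjusted p under 0.05 beside 12.8% of all genes and 0 by DESeq2 beside 120, and their Hspa8, at 1825 and 2129 CPM against 905 and 1589 CPM, was lower in both libraries labelled siFXR1-LNA (-0.67, SE 0.26, adjusted p = 0.337). In mast cells 4 members were tested and 0 called beside 1.68%, with 1 at an unadjusted p under 0.05 beside 10.1% and 0 by DESeq2 beside 26. No UMI of Hspa1a or Hspa1b was found in 118 and 71 mast cells of the libraries labelled siCont, which allows up to 22.6 and 33.2 CPM, while 1 and 9 UMIs of Hspa1a and 5 and 7 of Hspa1b were found in 76 and 69 mast cells of those labelled siFXR1-LNA. Erythrocytes, with 17 and 57 cells in the libraries labelled siFXR1-LNA, had 8 members tested and 0 called beside 0 of 11519 genes (0%), with 0 members and 997 genes at an unadjusted p under 0.05 and 0 members by DESeq2.

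**Figure D5:**
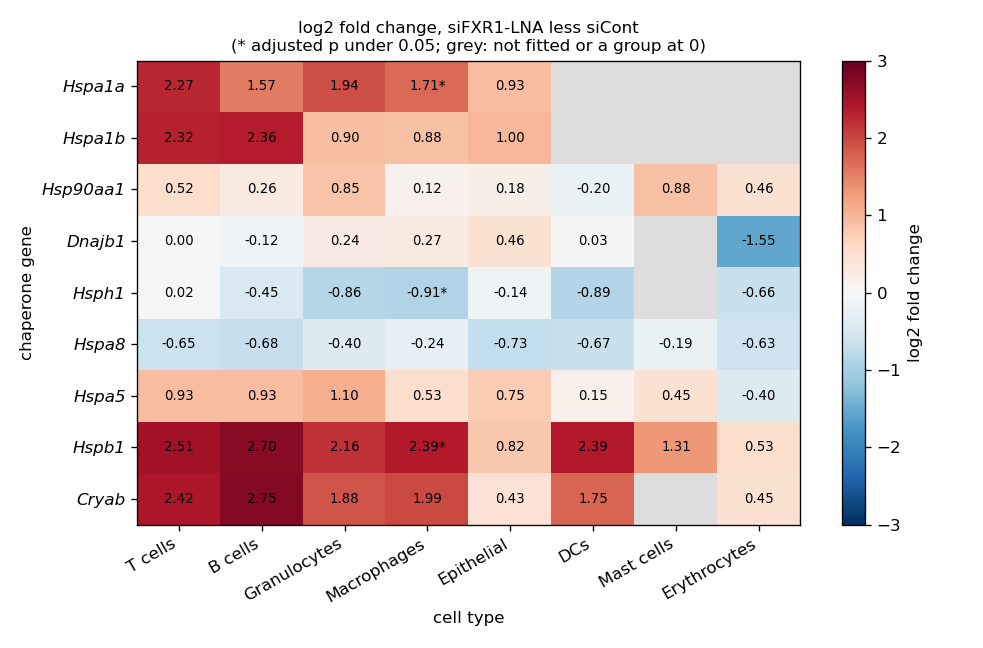
Log2 fold change of each chaperone between the libraries labelled siFXR1-LNA and siCont in the 8 tested cell types, colored from -3 (blue) to 3 (red), with a star where the adjusted p was under 0.05 and grey where a group had no UMI or the gene was not tested. The stars are in macrophages alone, for Hspa1a (1.71), Hspb1 (2.39) and Hsph1 (-0.91), while the Hspb1 row is red in every column and the Hspa8 row blue in every column.

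Counted over T cells, B cells, granulocytes, macrophages and epithelial cells, both libraries labelled siFXR1-LNA lay above both labelled siCont in 5 of 5 types for Hspb1 and for Cryab, as for 6.97% of the 10931 genes tested in all 5. The count was 4 for Hspa1a, Hspa1b and Hspa5 (17.8% of genes reach 4), 3 for Hsp90aa1 (30.3% reach 3) and 2 for Dnajb1 (45% reach 2). For Hspa8 both lay below in 3 types (12.4% reach 3), and for Hsph1 in 1 (60.8% reach 1). With hemoglobin left out of the totals, the groups overlapped for Hspa1a in B cells, Hspa1b in granulocytes, and Hspa5 and Hsp90aa1 in T cells. Dnajb1 overlapped then in granulocytes and epithelial cells. Both libraries labelled siFXR1-LNA then also lay below for Hspa8 in epithelial cells, Hsph1 in B cells and Hsp90aa1 in macrophages. Hspb1 and Cryab stayed apart in all 5 types. The shares of genes were not computed for those totals. The types share their libraries, so these counts are no replicates of each other.

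The change in T cells was then tested against the mean change of the other 7 tested types, with the library as a block. Of the 7 members that could be estimated, 0 passed the threshold, beside 2 of 14759 genes (0.0136%). The difference was 0.80 for Hspb1 (SE 0.40, adjusted p = 0.820), 0.92 for Cryab (SE 0.48, adjusted p = 0.829) and 0.11 for Hsp90aa1 (SE 0.30, adjusted p = 1), and it could not be estimated for Hspa1a and Hspa1b, which had no UMI in a whole group of mast cells or erythrocytes. Over the 5 types with at least 100 cells in every library, a contrast chosen after seeing the data, the difference was 0.68 for Hspa1a (SE 0.90, adjusted p = 0.978) and 0.97 for Hspa1b (SE 0.59, adjusted p = 0.835), with no member past the threshold beside 1 of 15781 genes (0.00634%). At an unadjusted p under 0.05 no member passed in either contrast, and DESeq2 called 0 members in the first.

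Ordered by the mean over the 4 libraries, nearly all neighboring cell types overlapped. For Hspa1a the order was mast cells (21.0 CPM, range 0 to 74.4), macrophages (15.9, 6.05 to 23.6), T cells (12.6, 1.09 to 22.3), B cells (6.41), epithelial cells (4.15), DCs (3.50), granulocytes (2.35) and erythrocytes (0.461), and no neighbors were apart. T cells had the highest mean of Dnajb1 (39.4 CPM, 34.5 to 46.5), followed by granulocytes (32.6, 21.7 to 44.8), and the highest of Hsph1 (29.5, 25.8 to 35.9), followed by epithelial cells (25.7, 18.8 to 30.3), all with overlap. The neighbors that did not overlap were macrophages and mast cells (24.9 to 31.6 against 15.1 to 24.8 CPM) and epithelial cells and erythrocytes (15.04 to 25.9 against 0 to 10.5 CPM) for Dnajb1, and DCs and erythrocytes for Hspa5 (377 to 453 against 45.2 to 321 CPM). DCs led the order of Hspa8 (1612 CPM, 905 to 2129), macrophages that of Hspa5 (658, 436 to 771) and epithelial cells those of Hspb1 (456, 298 to 626) and Cryab (82.6, 69.4 to 110.1).

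The wider stress programs were read from lists of genes. Of 18 further genes of the HSF1-responsive cytosolic set, 0 passed the test in T cells and their median log2 fold change was -0.08, next to -0.01 over all genes. Hsf1 itself, the factor of the heat shock response, stood at 25.9 and 30.1 CPM against 21.9 and 26.1 CPM (-0.40, adjusted p = 0.560). In macrophages 1 of the 18 rose, Hspa4l, an HSP110 relative (1.04, adjusted p = 0.00921), and 4 fell, among them the HSP90 partners Chordc1 (-0.81, adjusted p = 0.0248) and Ahsa1 (-0.68, adjusted p = 0.0292), with a median of -0.12. The macrophage calls of this list and those below include the Nos2 cluster, without which 0 genes passed. Over all genes tested in macrophages, 9.78% rose and 10.5% fell. In granulocytes Hspa4l rose too, from 26.8 and 23.3 CPM to 93.7 and 126 CPM (1.89, adjusted p = 0.0352).

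Of 21 genes of the endoplasmic reticulum, 0 passed in T cells (median 0.12) and 5 rose in macrophages with the Nos2 cluster included. The foremost were P4hb, a protein disulfide isomerase, from 235 and 242 CPM to 585 and 614 CPM (1.52, adjusted p = 0.00714), Dnajb9, a partner of BiP (0.70, adjusted p = 0.0237), and Ddit3, the stress factor CHOP (1.72, adjusted p = 0.0244). In epithelial cells 3 rose, the stress factors Atf6 (1.25, adjusted p = 0.0124), Ddit3 (1.21, adjusted p = 0.0211) and Atf4 (1.10, adjusted p = 0.0247). Ddit3 is also among the 10 leading genes of the Ccn2 cluster, where it stood at 205 and 87.8 CPM under the siFXR1-LNA label. It stood at 42.7 and 30.7 CPM against 93.6 and 75.7 CPM in epithelial cells and at 18.4 and 14.6 CPM against 60.9 and 33.8 CPM in macrophages, and the part of that cluster's RNA was not tested. Of 8 mitochondrial chaperones and proteases, Hspa9, the mitochondrial HSP70, and Lonp1, a protease, rose in macrophages (0.83 and 0.89) and in epithelial cells (1.58 and 1.03), and 0 passed in T cells. None of 16 chaperonin and folding genes passed in any type.

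Immediate early genes, which are switched on within minutes of a signal and also while cells are dissociated, were the list that passed in T cells. Of 13, 3 rose. Fos stood at 5.49 and 4.96 CPM in the libraries labelled siCont and at 58.3 and 62.9 CPM under the siFXR1-LNA label (log2 fold change 3.36, SE 0.26, adjusted p = 0.0122). Fosb (4.44, adjusted p = 0.0239) and Dusp1 (2.52, adjusted p = 0.0439) rose with it, and the median of the list was 1.90. In macrophages with the Nos2 cluster included, 9 of 13 rose (median 1.30), with Ier3 (3.41), Egr1 (2.21) and Atf3 (1.30) foremost. Nr4a1 (3.91) and Egr1 (3.27) rose in granulocytes, Dusp1 (1.65) and Jun (1.07) in epithelial cells and Ier3 (2.52) in DCs. Whether these moved with the HSP70 pair for a shared reason was not tested.

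Across the 32 sums of 8 cell types in 4 libraries, Hspa1a and Hspa1b varied together (Spearman's rho 0.89), as did Hspb1 and Cryab (0.89), while Hspb1 and Hspa8 went apart (-0.40). Hsp90aa1 and Hspa5 had a rho of 0.73. With the mean log2 CPM of Hspa1a, Hspa1b, Dnajb1, Hsph1 and Hsp90aa1, the most alike of 13490 other genes were Ndufs3 (0.83), Xylt2 (0.827), Impdh1 (0.821), Smu1 (0.818) and Zfp120 (0.815). The sums share libraries, depth and the RNA of other cells, so these values describe the table and carry no p.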

How the data were processed

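Droplet single-cell RNA-seq was made from 4 pools of mouse ascites. The authors deposited UMI counts per gene and cell barcode, made with Cell Ranger 7.0.0 per the submitters' processing notes, and these counts were used as deposited. The limits of the study's methods (from 100 up to 4800 genes in a cell, no more than 15% of its UMIs mitochondrial) decided which cells stayed in, which is also the only guard against doublets. They were clustered with Seurat 5.3.0 in R 4.3.3 (2000 variable genes with the chaperones left out, 50 principal components, resolution 0.1). The 12 clusters were named from marker lists, with 3 markers raised 2-fold in at least 5% of cells, a rule set after the clusters had been seen. UMIs were summed per library and type and tested with edgeR 4.0.16 (TMM, filterByExpr, quasi-likelihood test, Benjamini-Hochberg over all genes tested, threshold 0.05) in types with at least 10 cells in every library, and the step was tested on simulated data. CPM are UMIs per 1e6 of that sum. DESeq2 1.42.0 was an alternative. Binomial intervals are exact at 95%, and a count of 0 allows up to 3 counts. Intervals and limits cover counting error alone. In sums over cells, fewer cells of a kind and less RNA per cell cannot be told apart. The named genes are the 9 members, up to 3 called genes per list and type by smallest adjusted p, Hsf1, Fxr1 and the 5 genes most alike; leading genes of clusters, Ccn2 and Nos2 were added after values were seen. The members and lists were chosen with earlier results of these data known.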

Additional observations from a re-analysis of the deposited data

Results flagged for a closer look

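Hspb1 was found at 1020 and 534 CPM in the Ccn2 cluster of the libraries labelled siFXR1-LNA, replicate 1 and 2. It is given here because these cells were in no comparison between groups and both values lay above the 142 and 33.7 CPM of T cells in the libraries labelled siCont. Cryab stood at 143 and 58.9 CPM in the same cells, and Hspa5 at 943 and 502 CPM. With 58 and 40 cells of the libraries labelled siCont in the cluster, no test between groups was made.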

How the results depend on the processing

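The number of members past the threshold depended on the tool and on single libraries. The number of all genes called in the same setting follows each in brackets. With DESeq2 it was 3 in T cells (409), 2 in B cells (457), 2 in granulocytes (615), 1 in epithelial cells (889) and 5 in macrophages (3611). With no filter on low counts it was 4 in T cells (1093), 3 in B cells (1306), 3 in DCs (522), 1 in epithelial cells (1963) and 5 in macrophages (3962). With the replicate number as a block (replicate block) it was 4 in T cells (1012), 2 in B cells (694), 3 in DCs (399), 3 in granulocytes (1070) and 5 in macrophages (4634). With 2 pairs the numbers do not show that the samples are paired, and the deviations of same-numbered libraries had correlations of 0.015 to 0.37 over the 8 types. The block was not run for the difference between T cells and other types, where the library term holds it. Leaving out 1 library, with the lone library of that group assumed to vary like the other group, gave 0 to 4 members in T cells (24 to 420), 0 to 3 in B cells (0 to 865), 0 to 1 in DCs (1 to 335), 0 to 1 in epithelial cells (580 to 2033), 0 to 3 in granulocytes (153 to 2351) and 0 to 4 in macrophages (8 to 2528). With the chaperones kept among the variable genes, 5 passed in epithelial cells (5579). With each cell named from its own marker UMIs, 1 passed in epithelial cells (571), 1 in erythrocytes (433) and 0 in macrophages (1). Among the settings chosen after seeing the data, 0 passed in macrophages without the Nos2 cluster, and 1 in B cells and 1 in granulocytes without cells that held markers of another type, erythrocyte markers not counted (0, 77 and 97). With Hspa1a and Hspa1b summed the number was as before in all 8 types. The cause of these changes was not tested. The signs of small changes turned. Hsph1 in T cells was -0.03 with at least 500 genes per cell, -0.02 with the chaperones kept, -0.06 without siCont replicate 2, -0.11 without siFXR1-LNA replicate 2 (up to 0.11 without replicate 1) and -0.28 without the finer clusters led by genes of other cells. The T cell difference of Dnajb1 was -0.53 with at least 500 genes, -0.38 with the chaperones kept, -0.14 with own markers, -0.32 without siFXR1-LNA replicate 1 (1.74 without replicate 2), -0.84 without cells with other markers and -0.25 over the types with at least 100 cells. That of Hsp90aa1 was -0.01 at resolution 0.3, -0.05 with own markers and -0.35 without cells with other markers, that of Cryab -0.52 in the last setting and that of Hsph1 -1.07 without siCont replicate 1 (up to 2.11 without siFXR1-LNA replicate 1). Hspa1a, Hspb1 and Hsph1 in macrophages kept their direction in 17 of 17 settings but missed the threshold in 5, 8 and 5. Where totals were taken without hemoglobin, mean Dnajb1 was 45.2 CPM in T cells and 33.0 CPM in B cells, and erythrocytes moved for Hspa1a (1.37), Hspa1b (1.99), Hspb1 (447), Dnajb1 (16.3), Hspa8 (950.3), Hspa5 (493) and Cryab (76.8). Which groups overlapped changed with these totals as well, as given above for the types with at least 100 cells in every library. With T cells thinned to 500 UMIs, the Hspb1 shares were 8.24%, 1.86%, 31.8% and 20%, and the Hspa1a or Hspa1b shares 0.290% in siCont replicate 1 and 1.78% in siFXR1-LNA replicate 2. With no thinning they were 25.9%, 8.36%, 73.8% and 64.0%, and 1.61%, 1.24%, 3.05% and 5.02%. Leaving out cells with any marker of another type gave no value, since nearly all cells held hemoglobin UMIs. No value was had either for epithelial cells and erythrocytes with at least 500 genes, for mast cells at the wider mitochondrial limit, or for DCs, epithelial cells and erythrocytes without cells with other markers.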
